A study of Homo sapiens with 4 samples.

Results

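The proteasome genes of H1299 cells were followed on 4 whole-transcript Affymetrix arrays. They were taken as the genes whose symbol starts with PSMA to PSMG and a number, leaving out the 3 inducible catalytic subunits PSMB8, PSMB9 and PSMB10, and each gene was represented by its brightest probe set with 1 gene symbol. This gave 44 of the 18417 genes on the arrays, of which 42 are subunits, activators, an inhibitor or assembly chaperones of the proteasome. The other two, PSMC3IP and PSME3IP1, share the symbol only as interaction partners. PSMC5, PSMD7 and PSMD13 were not analysed here.

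H1299 is an established line from a human lung cancer of the non-small cell kind, and has no p53 of its own. The induced group (2 arrays) was a stable H1299 line with mouse p53 under tet-on control, after 24 hours in doxycycline at 0.5 µg/mL, and the uninduced group (2 arrays) was that line, with the construct, before induction. Both groups therefore carry the construct, the medium held tetracycline-free serum, and no array of doxycycline-treated cells without the construct was analysed here. The labels do not say whether the line is 1 clone, and they call the 2 arrays of a group technical, so the p-values measure the spread between arrays, which may be technical. CDKN1A and MDM2, transcribed under p53, were 10.8-fold and 7.39-fold higher on the induced arrays. Of the markers of the line, KRT18 and VIM averaged 11.04 and 12.32 log2 units on induced arrays, against 11.135 and 12.72 on uninduced arrays, and KRT8 rose 2.21-fold. Among markers of other cells, 1 of 4 for blood (CD3E, log2 fold change 0.26) and 2 of 5 for differentiated lung epithelium (SCGB1A1 and SFTPC) were called higher. For fibroblasts and endothelium it was 0 of 7 (0 at an unadjusted p under 0.05), and none of these markers was called lower. Over all genes 20.6% were called higher. CD3E and SFTPC were dim, averaging 6.06 and 6.93 log2 units on induced arrays, and both calls ended with any array left out. SCGB1A1, a secretory airway gene, rose 4.08-fold, and the pan-leukocyte gene PTPRC averaged 4.11 log2 units on induced and 3.98 on uninduced arrays. The part of other cell types in the results was not tested.

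The proteasome degrades proteins that carry a chain of ubiquitin. Its core particle is a barrel of 4 stacked rings, the outer ones built of alpha subunits (PSMA genes), which gate the entrance, and the inner ones of beta subunits (PSMB genes), some of which cut the substrate. The regulatory particle sits on the end of the barrel: its base holds a ring of ATPases (PSMC genes) that unfold the substrate, and its lid (part of the PSMD genes) removes the ubiquitin. Other caps (PSME genes) open the barrel without ubiquitin, and dedicated chaperones (PSMG and some PSMD genes) put the rings together. p53 itself is among the proteins known to be degraded this way, after MDM2 has attached ubiquitin to it. In many cell types the subunit genes are transcribed together, and NFE2L1, a membrane-bound transcription factor, raises them when proteasome activity falls short.

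Most proteasome genes differed little between the groups, as did most genes on the arrays, and more were lower than higher after induction. Of the 44 genes, 20 fell, 4 rose and 20 were not called by limma's test, for which the adjusted p (Benjamini-Hochberg, over all genes) had to be under 0.05. Over all 18417 genes, 24.6% were called lower and 20.6% higher at that threshold. That balance turned with the scaling, to 4277 higher and 4237 lower genes after a further quantile normalization and 4372 higher and 4182 lower after centring arrays on their medians, where the proteasome genes had 4 higher and 18 lower and 4 higher and 14 lower. Bright probe sets were called more often: among the 2592 genes at or above the lower quartile of the proteasome genes' own mean level (9.67 log2 units), 37.1% were lower and 32.5% higher. Of the 44 genes, 45.5% were lower and 9.09% higher. Of the 33 proteasome genes at that level or above, which the bright genes include, 45.5% were lower and 12.1% higher, and the difference from other genes was not tested. The median log2 fold change was -0.20 over the 44 genes, 0.0 over all genes and -0.04 over the bright ones. On an array of pooled RNA, fewer cells with a transcript and less of it per cell cannot be told apart.

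The changes were also small. Changes of at least 2-fold were called for 2 of the 44 genes, PSMG1 and PSMC3IP, both lower, against 6.77% lower and 6.48% higher over all genes and 7.83% lower and 12.2% higher among the bright ones. The absolute log2 fold change stayed under 0.5 for 33 of the 44 genes (75.0%), for 69.3% of all genes and, at the level of the bright genes, for 26 of 33 proteasome genes (78.8%) and 52.9% of the bright genes. Its median was 0.255 for the 44 genes and 0.23 for all genes. At the level of the bright genes it was 0.25 for those 33 and 0.465 for the bright genes. Changes as small as these sit close to the test's limit, with SEs from 0.0807 to 0.124 log2 units. Of the 24 calls, 9 held in each of the 12 alternative analyses that tested the gene: PSMA4, PSMB3, PSMC6, PSMD3, PSMD11, PSMD12, PSMG1 and PSMC3IP lower, and PSME2 higher. When 1 array was left out, between 9 and 16 genes were called, fewest without uninduced array 2, where 8 were lower and 1 higher.

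**Figure D1:**
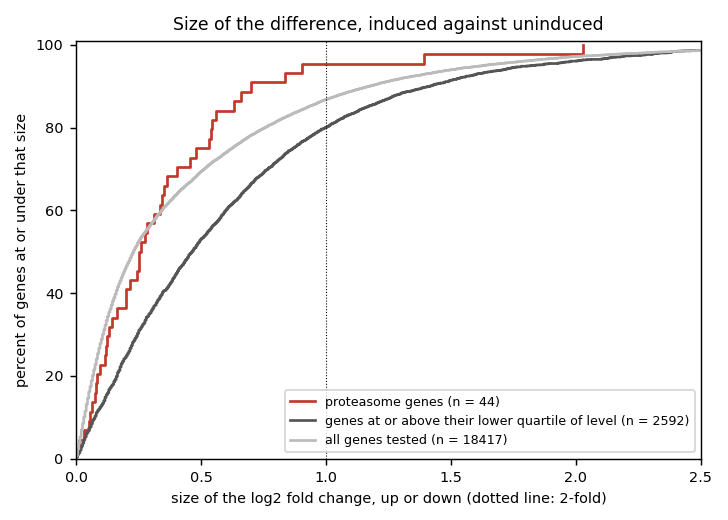
Cumulative percentage of genes (vertical axis) at or under a given absolute log2 fold change between induced and uninduced arrays (horizontal axis), for the 44 proteasome genes, the 2592 genes at or above their lower quartile of level and all 18417 genes. The percentage under 0.5 is 75.0% for the proteasome genes, 52.9% for the bright genes and 69.3% for all genes; the 44 genes include some dimmer than the bright genes, and the curves are not matched for level.

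**Figure D2:**
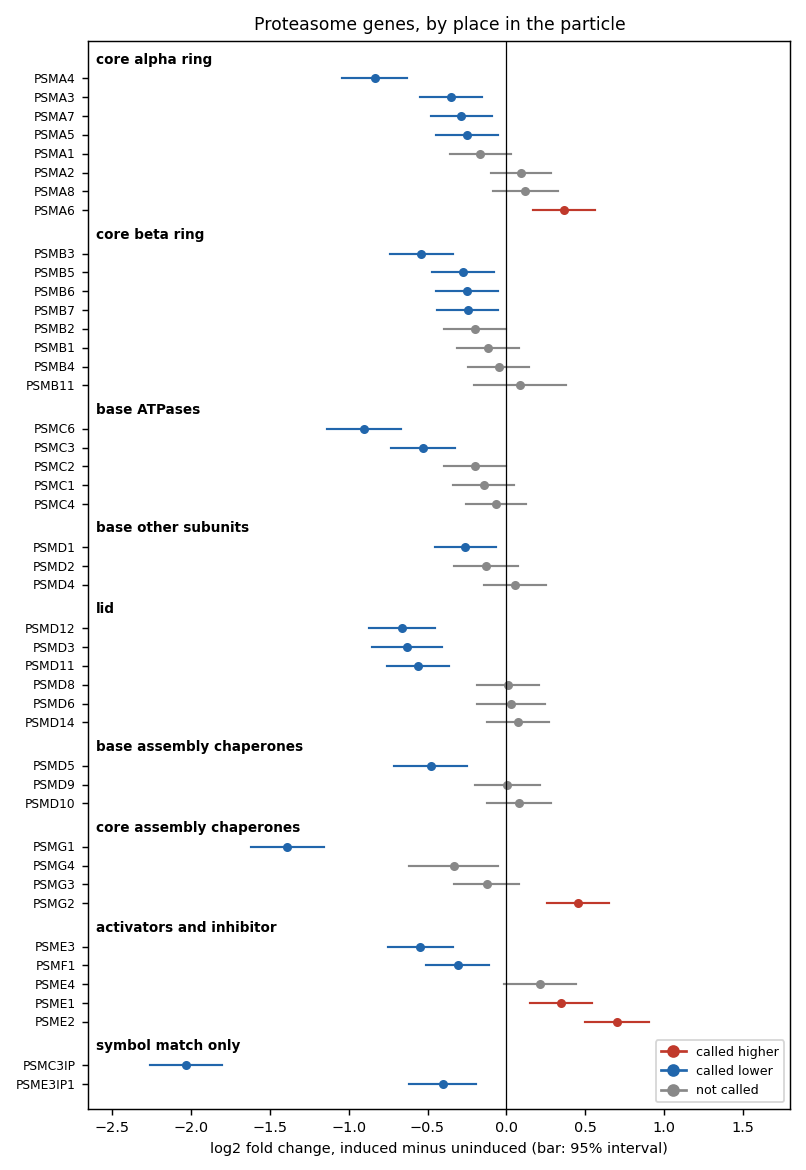
Log2 fold change (horizontal axis, induced minus uninduced) of each proteasome gene, grouped by place in the particle, with its unadjusted 95% interval from limma (2 arrays per group). Within each part of the particle, genes called lower stand beside genes whose interval includes 0, and genes called higher appear in the alpha ring, among the core chaperones and among the activators.

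Counts by part of the particle, here and below, stand against 24.6% lower and 20.6% higher over all genes. Among bright genes the shares were 37.1% lower and 32.5% higher. The alpha ring of the core was uneven. Of 8 genes, 4 fell (PSMA4, PSMA3, PSMA7 and PSMA5), PSMA6 rose and 3 did not pass the test, with a median log2 fold change of -0.207. PSMA4, a subunit at the gate of the barrel, was at 10.87 and 10.98 log2 units on the induced arrays, against 11.79 and 11.73 on the uninduced arrays. Both induced values lay below both uninduced ones, and PSMA4 fell by 0.835 on the log2 scale (SE 0.0871, adjusted p = 0.00015), the largest fall of the core. PSMA6, another subunit of the ring, moved the other way, with 12.16 and 12.13 on the induced arrays against 11.81 and 11.75 on the uninduced arrays. The groups did not overlap, and the rise was 1.29-fold (log2 fold change 0.365, SE 0.0825, adjusted p = 0.00809), a call that ended without either uninduced array (adjusted p up to 0.341 over all alternatives).

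The other alpha genes moved less. The log2 fold changes of PSMA3, PSMA7 and PSMA5 were -0.35, -0.285 and -0.25 (adjusted p = 0.01, 0.0237 and 0.0444 in limma's test). The calls of PSMA7 and PSMA5 were lost on leaving out any of the arrays and on centring arrays at their medians, and that of PSMA3 without either uninduced array. PSMA1 had a log2 fold change of -0.165 (95% interval -0.356 to 0.026) and PSMA2 one of 0.095 (-0.095 to 0.285). PSMA8, which replaces an alpha subunit in the testis, was dim, at 4.24 and 4.17 on the induced arrays and 4.14 and 4.03 on the uninduced arrays, and did not pass the test (log2 fold change 0.12).

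In the beta ring 4 of 8 genes fell and 0 rose, with a median of -0.222 (5 had an unadjusted p under 0.05). PSMB3, a subunit without an active site, was at 10.67 on both induced arrays, against 11.26 and 11.16 on the uninduced arrays. It fell by 0.54 (SE 0.0848, adjusted p = 0.00129), and it was the beta gene whose call held throughout. The 3 genes that carry the active sites fell by nearly equal amounts. PSMB5, the chymotrypsin-like subunit that bortezomib binds, had 10.55 and 10.60 log2 units on the induced arrays, against 10.89 and 10.81 on the uninduced arrays (log2 fold change -0.275, 95% interval -0.473 to -0.077, adjusted p = 0.0315). PSMB6, the caspase-like subunit, had 12.62 and 12.55 induced, against 12.84 and 12.83 uninduced (log2 fold change -0.25, -0.445 to -0.055, adjusted p = 0.0424). PSMB7, the trypsin-like subunit, had 11.50 and 11.54 induced, against 11.79 and 11.74 uninduced (log2 fold change -0.245, -0.439 to -0.051, adjusted p = 0.0449). For each of the 3 the induced values lay below the uninduced ones, by about 1.2-fold. All 3 calls ended when arrays were centred on their medians, when all rows of the table were tested together and when any array was left out. Over all alternatives the adjusted p-values ran up to 0.986 for PSMB5 and 1.0 for PSMB6 and PSMB7.

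The remaining beta genes did not pass the test. PSMB2, PSMB1 and PSMB4 had log2 fold changes of -0.20 (-0.395 to -0.005), -0.115 (-0.311 to 0.081) and -0.05 (-0.242 to 0.142). PSMB11, the catalytic subunit of thymic epithelium, was at 6.08 and 5.74 on the induced arrays and 5.77 and 5.88 on the uninduced arrays. Those ranges overlap, and its log2 fold change was 0.085 (-0.206 to 0.376).

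**Figure D3:**
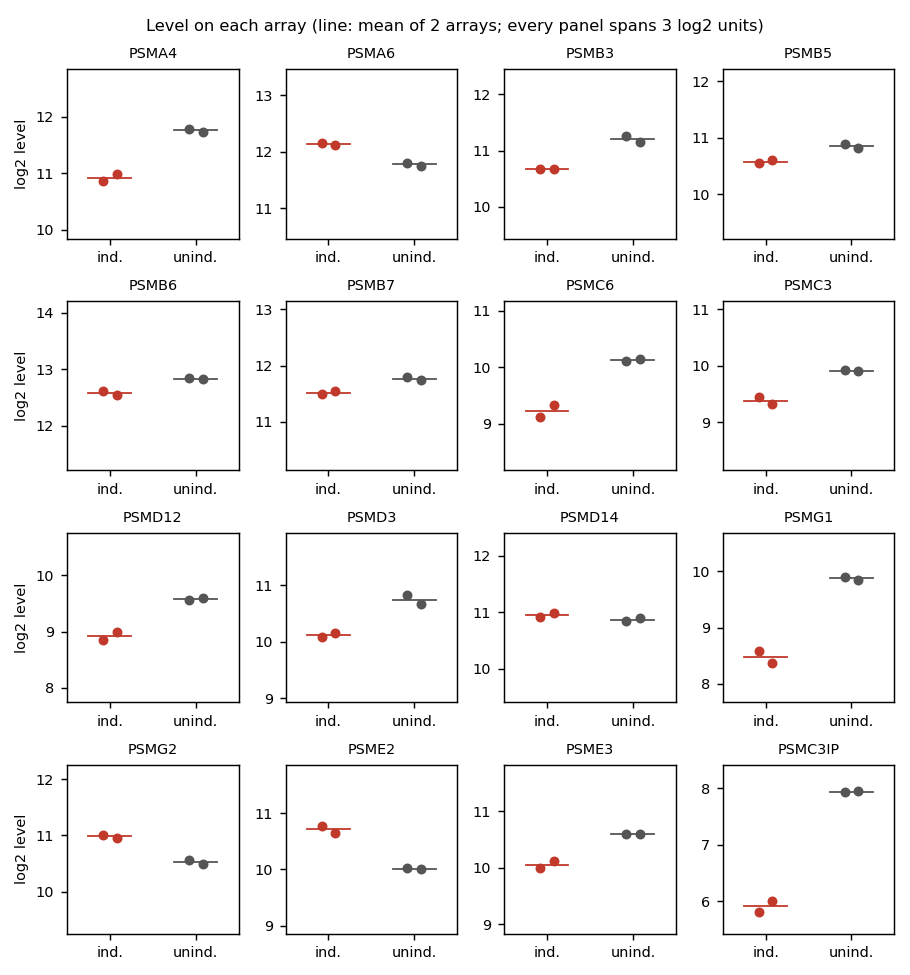
Log2 level (vertical axis, 3 log2 units in each panel) of 16 genes on the 2 induced arrays (left, red) and the 2 uninduced arrays (right, grey), with the group mean as a line. The catalytic genes PSMB5, PSMB6 and PSMB7 have log2 fold changes of -0.275, -0.25 and -0.245, PSMD14 shows no called shift, and PSMG1 and PSMC3IP lie over 1 log2 unit lower on the induced arrays.

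Of the base ATPases, 2 of the 5 measured fell and 0 rose (3 had an unadjusted p under 0.05), with a median of -0.20. PSMC6 was at 9.11 and 9.33 on the induced arrays, against 10.11 and 10.14 on the uninduced arrays. The groups were well apart, and it fell by 0.905 (SE 0.0996, adjusted p = 0.000199), the largest fall among the core and regulatory subunits by brightest probe set. Its other probe set, annotated with the same transcripts, had 8.12 and 8.19 induced, against 8.98 and 8.99 uninduced (log2 fold change -0.83), slightly under the fall of PSMA4. PSMC3 had 9.44 and 9.32 induced, against 9.92 and 9.90 uninduced, and fell by 0.53 (SE 0.0867, adjusted p = 0.0016), a call lost without either uninduced array at an adjusted p of up to 0.0567. The rest of the ATPase ring did not pass: the log2 fold changes of PSMC2, PSMC1 and PSMC4 were -0.20 (-0.397 to -0.003), -0.145 (-0.336 to 0.046) and -0.065 (-0.255 to 0.125). The second PSMC1 probe set gave -0.13. PSMC1 and PSMC6 each had 2 probe sets annotated with 1 set of transcripts, so signal from a near-identical copy could not be told from that of the gene.

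The base also holds 2 large scaffold subunits and a ubiquitin receptor. PSMD1, a scaffold, was at 11.14 and 11.13 induced, against 11.37 and 11.42 uninduced, and fell by 0.26 (SE 0.0817, adjusted p = 0.0348). The call of PSMD1 ended with any array left out and after centring (adjusted p up to 1.0 over all alternatives). PSMD2, the other scaffold, had 10.30 and 10.37 induced, against 10.42 and 10.51 uninduced, and its log2 fold change of -0.13 (-0.332 to 0.072) did not pass. PSMD4, a ubiquitin receptor, had one of 0.055 (-0.14 to 0.25).

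The lid divided into 2 sets. Of 6 genes measured, PSMD12, PSMD3 and PSMD11 fell and PSMD8, PSMD6 and PSMD14 did not pass the test, and each of the 12 alternatives gave the same count of 3 lower and 0 higher. PSMD12 had 8.85 and 8.99 log2 units on the induced arrays, against 9.56 and 9.60 on the uninduced arrays, and fell by 0.66 (SE 0.0893, adjusted p = 0.000589). PSMD3 had 10.08 and 10.15 induced, against 10.83 and 10.66 uninduced, and fell by 0.63 (SE 0.094, adjusted p = 0.00099). PSMD11, a subunit that clamps the lid to the core particle, had 10.05 and 10.11 induced, against 10.63 and 10.65 uninduced, and fell by 0.56 (SE 0.0823, adjusted p = 0.000914). They encode helical scaffold subunits of the lid, as PSMD6 and PSMD8 also do. PSMD14, the deubiquitinase of the lid, had 10.91 and 10.98 induced, against 10.85 and 10.89 uninduced, so that its induced values were slightly above the uninduced ones. Its log2 fold change of 0.075 (SE 0.0834, 95% interval -0.121 to 0.271, adjusted p = 0.538) did not pass. PSMD6 and PSMD8 had log2 fold changes of 0.03 (-0.187 to 0.247) and 0.01 (-0.187 to 0.207). The intervals of these 3 genes and those of PSMD12, PSMD3 and PSMD11 did not overlap, a description of separate tests and not a test of the difference between genes.

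The chaperones that assemble the particle changed in both directions. PSMG1 and PSMG2 encode partners of 1 heterodimer, which guides the alpha ring together. PSMG1 was at 8.59 and 8.38 on the induced arrays, against 9.90 and 9.85 on the uninduced arrays. The groups lay over 1 log2 unit apart, and PSMG1 fell by 1.39 (2.62-fold, SE 0.0987, adjusted p = 2.19e-05), with -1.495 to -1.285 over all alternatives. PSMG2 had 11.01 and 10.96 induced, against 10.57 and 10.49 uninduced, and rose 1.37-fold (log2 fold change 0.455, SE 0.0844, adjusted p = 0.00305). The call of PSMG2 ended without uninduced array 2 or against a minimum fold of 1.2 (adjusted p up to 0.0879 over all alternatives). The partners thus differed in direction on these arrays. Of the second pair, PSMG3 had a log2 fold change of -0.125 (-0.331 to 0.081) and the dimmer PSMG4 one of -0.335 (-0.618 to -0.052, adjusted p = 0.0576), and neither passed.

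Among the chaperones of the base, 1 of 3 fell (33.3%, against 37.1% of bright genes). PSMD5 was at 9.05 and 9.24 induced, against 9.57 and 9.68 uninduced, and fell by 0.48 (SE 0.0992, adjusted p = 0.00525). That call ended without induced array 1 or either uninduced array, or against a minimum fold of 1.2 (adjusted p up to 0.119 over all alternatives). PSMD10, known as gankyrin, which binds MDM2 and the retinoblastoma protein, had 10.68 and 10.64 induced, against 10.63 and 10.53 uninduced, a log2 fold change of 0.08 (-0.121 to 0.281) that did not pass. PSMD9 stood at 0.005 (-0.202 to 0.212).

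The caps other than the regulatory particle moved in both directions: of 5 genes, PSME1 and PSME2 rose, PSME3 and PSMF1 fell and PSME4 did not pass. PSME1 and PSME2 encode the 2 subunits of an interferon-inducible cap linked to antigen processing. PSME2 had 10.77 and 10.65 log2 units on the induced arrays, against 10.02 and 10.00 on the uninduced arrays, and rose 1.62-fold (log2 fold change 0.70, SE 0.0867, adjusted p = 0.000371). It was the largest rise of the 44 genes. PSME1 rose 1.27-fold, with 9.88 and 9.85 induced, against 9.56 and 9.48 uninduced (log2 fold change 0.345, adjusted p = 0.0113). Its call ended with any array left out.

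PSME3 forms the nuclear cap, known for ubiquitin-independent degradation of the p21 protein and for helping MDM2 act on p53. It had 9.99 and 10.12 induced, against 10.60 on both uninduced arrays, and fell by 0.545 (SE 0.0876, adjusted p = 0.00145), with an adjusted p of up to 0.0551 when an uninduced array was left out. PSMF1, an inhibitor of the core particle in vitro, was at 10.49 and 10.54 induced, against 10.87 and 10.78 uninduced, and fell by 0.31 (adjusted p = 0.0197), a call that ended with any array left out. PSME4, a large cap linked to the degradation of acetylated histones, had a log2 fold change of 0.215 (-0.014 to 0.444, adjusted p = 0.12).

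The 2 genes matched by symbol alone both fell. PSMC3IP encodes a cofactor of the strand-exchange proteins of homologous recombination and no subunit of the proteasome. It was at 5.81 and 6.01 on the induced arrays, against 7.93 and 7.95 on the uninduced arrays, and fell by 2.03 (4.08-fold, SE 0.0964, adjusted p = 3.48e-06), the largest change of the 44. Its induced mean of 5.91 lay below 7.252 log2 units, the limit used for dim probe sets, and near the blood marker CD3E (6.05 and 6.07 induced), so it was not shown to be above background and the fold is not exact. PSME3IP1, whose product binds the PSME3 cap, had 9.45 and 9.57 induced, against 9.86 and 9.97 uninduced, and fell by 0.405 (SE 0.0913, adjusted p = 0.00798), a call lost without induced array 1 or either uninduced array. Without these 2 genes, 18 of 42 were lower and 4 higher, with a median of -0.182.

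Promoters of 38 of the 44 genes were found in the RefSeq promoter table of GRCh38.p14, as 47 windows from 250 bases before to 50 after a start. The windows were searched on both strands for the core of the antioxidant response element, TGACNNNGC, which NFE2L1 and related factors bind, for CCAAT, which NF-Y binds, and for the p53 consensus decamer without a mismatch. The first was found in 13 of 47 windows (27.7%), against 13.3% of all 35116 windows of that length, and CCAAT in 21 (44.7%), against 34.6%. The p53 decamer was in 1 window (2.13%), of PSMA2, against 6.63% of all windows. The median GC share of the windows was 62.0%, against 58.7% in all windows. No window held overlapping matches of CCAAT and the response element core. Some genes have several, partly overlapping windows, and a match is a string of letters and no evidence of binding. Windows of 2 pairs of binding partners, the cap genes PSME1 and PSME2 and the chaperone genes PSMG1 and PSMG2, are shown. Each of the 4 genes, whether it rose or fell, has a window with the response element core, printed in capitals. The windows shown lie at chr14:24135944-24136243 on the plus strand, chr14:24146561-24146860 on the minus strand, chr21:39183402-39183701 on the minus strand and, for the first of the 2 PSMG2 windows, chr18:12658488-12658787 on the plus strand. The second PSMG2 window, at chr18:12702792-12703091, held no match of that core.
PSME1: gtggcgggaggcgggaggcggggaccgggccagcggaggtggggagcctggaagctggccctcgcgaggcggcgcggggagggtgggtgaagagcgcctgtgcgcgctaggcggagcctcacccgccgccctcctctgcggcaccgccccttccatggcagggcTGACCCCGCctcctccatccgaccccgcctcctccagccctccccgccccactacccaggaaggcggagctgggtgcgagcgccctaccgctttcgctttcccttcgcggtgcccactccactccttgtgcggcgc
PSME2: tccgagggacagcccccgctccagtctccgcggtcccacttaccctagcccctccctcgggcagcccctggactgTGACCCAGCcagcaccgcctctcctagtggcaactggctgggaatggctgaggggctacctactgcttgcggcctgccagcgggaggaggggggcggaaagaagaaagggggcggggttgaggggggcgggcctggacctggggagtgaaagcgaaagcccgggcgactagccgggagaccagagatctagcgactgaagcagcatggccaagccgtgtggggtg
PSMG1: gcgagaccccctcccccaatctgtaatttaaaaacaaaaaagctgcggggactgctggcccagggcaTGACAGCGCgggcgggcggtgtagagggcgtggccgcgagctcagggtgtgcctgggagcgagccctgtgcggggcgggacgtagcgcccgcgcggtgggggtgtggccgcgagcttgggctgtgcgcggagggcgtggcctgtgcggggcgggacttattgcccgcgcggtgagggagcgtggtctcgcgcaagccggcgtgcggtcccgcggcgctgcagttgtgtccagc
PSMG2: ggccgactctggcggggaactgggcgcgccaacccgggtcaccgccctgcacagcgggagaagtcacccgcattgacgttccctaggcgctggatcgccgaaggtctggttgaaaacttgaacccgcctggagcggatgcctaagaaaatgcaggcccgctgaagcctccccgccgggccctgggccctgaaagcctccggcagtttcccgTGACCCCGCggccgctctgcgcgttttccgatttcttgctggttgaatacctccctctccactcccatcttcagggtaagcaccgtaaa

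Genes that work with the proteasome but lie outside the symbol rule were read from 5 lists, whose counts stand against 24.6% lower and 20.6% higher over all genes and 37.1% lower and 32.5% higher among bright genes. The inducible catalytic subunits PSMB8 and PSMB9 rose and PSMB10 did not pass. PSMB8 had 7.15 and 7.08 log2 units induced, against 6.12 and 6.14 uninduced, and rose 1.98-fold (adjusted p = 5e-05). All 4 values lay below the limit for dim probe sets, so its level was not shown to be above background, the fold is not exact, and it was not tested when dim probe sets were left out. PSMB9 had 9.22 and 9.26 induced, against 8.34 and 8.40 uninduced, and rose 1.83-fold (adjusted p = 9.31e-05). These subunits take the places of PSMB5 and PSMB6, which were slightly lower on the same arrays, by calls that ended with any array left out. PSMB10, which takes that of PSMB7, had a log2 fold change of 0.095 (-0.099 to 0.289).

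Of 11 partners and assembly factors without a PSM symbol, 7 fell, ADRM1 rose and 3 did not pass, with a median log2 fold change of -0.42. The count lower ran from 3 to 9 over the alternatives. ADRM1, a ubiquitin receptor of the base, had 12.59 and 12.60 induced, against 11.47 and 11.46 uninduced, and rose 2.19-fold (SE 0.0807 on the log2 scale, adjusted p = 2.26e-05). UCHL5, the deubiquitinase that ADRM1 recruits and activates, was at 7.73 and 7.95 induced, against 9.22 and 9.32 uninduced, and fell by 1.43 (2.69-fold, SE 0.103, adjusted p = 2.33e-05). The receptor rose and its enzyme fell, without overlap between the groups for either gene. ECPAS, an adaptor that binds the particle, fell by 0.98 and PAAF1, which binds the ATPases, fell by 0.705. POMP, the chaperone of the beta ring, fell by 0.43 (adjusted p = 0.00339). Its call was lost without either uninduced array or against a minimum fold of 1.2 (adjusted p up to 0.119 over all alternatives).

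Of 5 genes of the NFE2L1 axis measured, 3 fell and 0 rose, with 1 to 3 lower over the alternatives. NGLY1, the glycanase that activates NFE2L1, had 8.43 and 8.50 induced, against 9.24 and 9.34 uninduced, and fell by 0.825 (SE 0.0868, adjusted p = 0.000157). MAFG, a small partner protein of the factor, had 8.98 and 9.08 induced, against 9.48 and 9.40 uninduced, and fell by 0.41 (adjusted p = 0.00611). NFE2L1 itself fell by 0.38 (adjusted p = 0.00628). Both calls were lost without either uninduced array or against a minimum fold of 1.2. That of MAFG was also lost without induced array 1 (adjusted p up to 0.194 over all alternatives). NFE2L2, the relative of NFE2L1 in the oxidative stress response, had a log2 fold change of -0.14 (-0.332 to 0.052). Of 10 ubiquitin shuttle and extraction genes, 3 rose and 4 fell, shares close to those of bright genes. FAF1, a cofactor of the VCP segregase, had 10.56 and 10.67 induced, against 9.50 and 9.62 uninduced, and rose 2.08-fold (SE 0.0913 on the log2 scale, adjusted p = 5.82e-05). UBQLN4, a shuttle, had 8.41 and 8.55 induced, against 9.36 and 9.29 uninduced, and fell by 0.845 (SE 0.0905, adjusted p = 0.000173). VCP itself fell by 0.30 (adjusted p = 0.0231, lost with any array left out). Of 3 genes of ubiquitin and its activating enzymes, UBA6 fell by 0.275 (adjusted p = 0.0429, lost without 3 of the 4 arrays in turn), and UBB and UBA1 had log2 fold changes of 0.06 (-0.135 to 0.255) and -0.035 (-0.226 to 0.156).

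**Figure D4:**
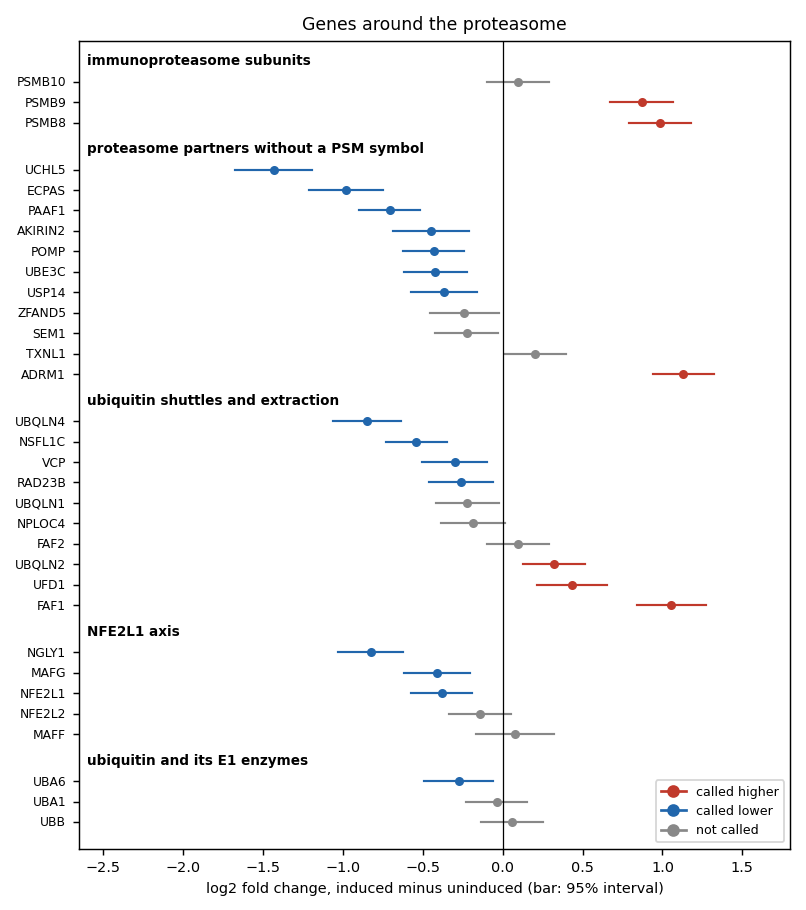
Log2 fold change (horizontal axis, induced minus uninduced) of genes that work with the proteasome, in 5 lists, with unadjusted 95% intervals from limma (2 arrays per group). ADRM1 and FAF1 are over 2-fold higher and UCHL5 over 2-fold lower on the induced arrays, and PSMB8 and PSMB9 stand apart from PSMB10.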

How the data were processed

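Total RNA of 4 samples was made into biotin-labelled cDNA, 1 array each, per the labels' protocols. The authors deposited log2 expression levels, made with Affymetrix Expression Console and RMA per the submitters' processing notes. As for versions, genome build and filters: not given in the sources used here. RMA makes the distributions of probe intensities equal between arrays, so a shift of all transcripts together would not show, and small folds of dim probe sets are compressed. The summarized values ran from 2.26 to 14.3, and their array medians still differed, from 7.26 to 7.33. Having 2 arrays a group limits the precision.

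Of 33297 rows, 19460 had 1 gene symbol in the platform annotation, 1754 several and 12083 none, and 19429 gene IDs were matched to RefSeq for current names. The brightest probe set stood for a gene. limma 3.58.1 in R 4.3.3 (lmFit and eBayes, constant prior, 7.205 total degrees of freedom) gave a two-sided comparison of induced with uninduced arrays, adjusted by Benjamini-Hochberg across the 18417 genes. The code was also run on simulated data, with independent noise drawn from limma's own fitted prior and known shifts added. That run checks the code and cannot show how the calls would hold over biological replicates. The alternatives were another quantile normalization, median centring, leaving out dim probe sets (under 7.252 log2 units), averaged probe sets, all rows, a trended robust prior, treat, a replicate block and leaving out each array. Groups came from the sample titles. Intervals are 95% and unadjusted. The members and lists were chosen with earlier results of these data known. The rule for naming genes gave values on each array for the 2 members of each role with the largest change, PSMB5, PSMB6, PSMB7, PSMD14 and both symbol matches, and named the 2 most changed genes of each other list. PSMD11, PSME1, PSMF1, PSMA8, PSMB11 and further list genes were added after their values were seen, as were the comparison with bright genes and the neighbours of PSME1 and PSME2. Scripts used Python 3.11.15.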

Additional observations from a re-analysis of the deposited data

How the results depend on the processing

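The 12 alternatives were planned with earlier results known. Of the values of the 44 proteasome genes under them, 438 kept their side of the threshold, 77 lost the call, 9 gained one and none of the called values changed direction. The count lower (20) and higher (4), 24 in all, became 14 and 4 after centring arrays on their medians, where the median log2 fold change moved to -0.15, and 10 and 1 (11 in all) when limma's treat tested against a fold of 1.2. Without dim probe sets 1 gene, PSMG1, was called at 2-fold or more, since PSMC3IP was left out by that filter. Leaving out each array gave 9 to 16 calls, 8 to 13 of them lower and 1 to 3 higher, 2 to 3 of at least 2-fold (PSMC6 joined without induced array 2), with medians from -0.20 to -0.18. The arrays' shared replicate numbers were not treated as pairs, because 2 pairs with deviations correlated at 0.225 across genes do not establish pairing; with the replicate block 18 genes were lower and 4 higher, 22 in all, and the calls of PSMB5, PSMB6 and PSMB7 were lost and PSMG4 gained one. Over the alternatives the count lower ran from 1 to 5 in the alpha ring, 1 to 5 in the beta ring, 1 to 4 among the ATPases and 3 to 3 in the lid. Of genes outside the symbol rule, FAF2 was the one reversed: -0.29 as a mean of its probe sets, against 0.095 for the brightest; the cause was not tested. With 2 arrays a group and no detection call, the smallest called change of a proteasome gene was 0.245 log2 units (PSMB7, lower).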

Other observations

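Gene order around the 2 cap genes that rose was read from RefSeq. PSME1 and PSME2 lie on chromosome 14 with EMC9 between them. EMC9, a subunit of a membrane protein insertase, averaged 7.435 log2 units on induced arrays and 7.99 on uninduced arrays and fell by 0.555 (SE 0.0939, adjusted p = 0.0019 in limma's test). RNF31, a ubiquitin ligase of the linear chain complex whose start lies 265 bases from that of PSME2 on the opposite strand, fell by 0.50 (SE 0.0815, adjusted p = 0.00156). FITM1, on the other side of PSME1, had a log2 fold change of 0.08 (SE 0.0941). It averaged 6.91 log2 units on induced and 6.83 on uninduced arrays, under the limit for dim probe sets. Its level was not shown to be above background, so it cannot tell whether the rise extended to that side. The rises of PSME1 and PSME2 were thus not shared by EMC9 and RNF31.

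Of 6 proteasome genes whose start lies within 1000 bases of a measured gene on the opposite strand, head to head, PSME2 and PSMG2 were called. Over all genes 45.1% were called, and among bright genes 69.6%. CEP76, a centriole gene opposite PSMG2, had a log2 fold change of 0.225 (adjusted p = 0.112), while PSMG2 rose by 0.455 on the log2 scale. ATG4A, an autophagy protease gene opposite PSMD10, and ACYP2 opposite PSME4 rose by 0.50 and 0.40 (adjusted p = 0.00603 and 0.00474), while PSMD10 and PSME4 did not pass. MRPL32 opposite PSMA2 and HPD opposite PSMD9 did not pass, at 0.125 and 0.245. ATG4A (7.18 log2 units induced, 6.68 uninduced) and HPD (6.34 and 6.095) averaged under the limit for dim probe sets. Neither was shown to be above background, and the fold of ATG4A is not exact.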
